A study of Rattus norvegicus with 18 samples.

Results

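The genes of oxidative phosphorylation were followed in the fractured rat femur. Members were all genes on the array whose symbol starts with Nduf, Sdh, Uqcr, Cox and a digit, Cyc or Atp5, with manufacturer's controls left out and the brightest probe set standing for each gene. This gave 56 of 4736 named genes, measured by 102 of 8740 probe sets. They were 50 subunits (24 of complex I, 1 of complex II, 4 of complex III, 12 of complex IV and 9 of complex V), 5 genes that are not subunits (the assembly factors Ndufaf3 and Sdhaf2, the supercomplex factor Cox7a2l, the ATP synthase inhibitor Atp5if1 and the pseudogene Cox6c-ps1) and Ndufa4l2, which is shown apart. The muscle forms measured were Cox6a2 and Cox8b. Cox7a1 had no probe set matched here.

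Samples were 18 arrays, 1 for each of 3 ages and 6 times, and each array carried RNA pooled from 2 intact female Sprague-Dawley rats. The rats were young (6 weeks), adult (26 weeks) or older (52 weeks) when a closed mid-shaft fracture was made around an intramedullary rod. The unfractured control of each age is called 0 week, and the fractured groups were taken at 0.4 week (3 days in the labels), then after 1 and 2 weeks, and last after 4 or 6 weeks. The tissue was the middle of the femoral shaft with callus, cortical bone and marrow, so that several cell types share each RNA. In such bulk tissue, fewer cells of a type and less RNA per cell cannot be told apart.

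Oxidative phosphorylation makes most of a resting cell's ATP. Complexes I and II pass electrons from NADH and succinate to complex III, which hands them through cytochrome c to complex IV, where oxygen is reduced, and complex V uses the resulting proton gradient to make ATP. Most subunits are nuclear genes, and a few of the catalytic ones are encoded in the mitochondrial genome. Complex IV has paired forms of several small subunits: heart and skeletal muscle use Cox6a2, Cox7a1 and, in rodents, Cox8b, while most other tissues use Cox6a1, Cox7a2 and Cox8a. Striated muscle fibres and red marrow are rich in mitochondria, whereas cartilage relies mostly on glycolysis.

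The promoters of the muscle forms are shown beside that of Cox8a, the general partner of Cox8b, because the members of these pairs moved apart. The sequences are the 250 bases before the annotated start, from RefSeq (build GRCr8), at chr1:192219717-192219966 for Cox6a2, chr1:205408274-205408523 for Cox8b and chr1:213833624-213833873 for Cox8a, all on the minus strand and written 5′ to 3′. Capitals mark matches, on either strand, to 6 motifs. The letters CAGCTG are the E-box of myogenic factors. The MEF2 motif was searched as CTA, any 4 bases and TAG. The TATA box was searched as TATAAA. The ETS motif of factors such as GABP was searched as CCGGAAG. The NRF1 motif was searched as GCGC, any base and TGCGC, and the ERR motif as TCAAGGTCA. No matches in these windows overlap.
Cox6a2: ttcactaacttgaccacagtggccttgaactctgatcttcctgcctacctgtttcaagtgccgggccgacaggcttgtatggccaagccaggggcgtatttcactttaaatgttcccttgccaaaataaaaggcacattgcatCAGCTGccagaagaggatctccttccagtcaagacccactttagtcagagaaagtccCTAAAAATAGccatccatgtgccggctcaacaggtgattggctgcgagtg
Cox8b: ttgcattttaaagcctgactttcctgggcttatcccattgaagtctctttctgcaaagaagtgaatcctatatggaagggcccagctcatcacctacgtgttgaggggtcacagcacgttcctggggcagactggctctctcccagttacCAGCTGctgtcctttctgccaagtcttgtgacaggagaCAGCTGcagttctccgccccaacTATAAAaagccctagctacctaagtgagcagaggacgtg
Cox8a: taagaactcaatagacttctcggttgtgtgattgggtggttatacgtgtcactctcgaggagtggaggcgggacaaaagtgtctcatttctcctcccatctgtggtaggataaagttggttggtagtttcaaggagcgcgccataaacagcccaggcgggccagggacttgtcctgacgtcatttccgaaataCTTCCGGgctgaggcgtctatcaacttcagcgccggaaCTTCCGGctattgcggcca

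The Cox6a2 window held CAGCTG at -107 and a MEF2 match at -50, counted from the start. The Cox8b window held CAGCTG at -100 and -62 and TATAAA at -39. The Cox8a window held neither, and it held the ETS letters at -57 and -19. Promoters were found for 47 of the 56 members, and they were searched beside 18999 promoters of protein-coding genes. CAGCTG was in 17.0% of the member promoters and in 11.9% of all promoters. The ETS letters were in 19.1% and 9.52%, NRF1 in 10.6% and 5.44%, MEF2 in 4.26% and 3.16%, and TATAAA in 4.26% and 12.3%. ERR was in 0 of the 47 member promoters and in 0.305% of all. CAGCTG was also in promoters of subunits that are not muscle forms, such as Cox4i1 at -80. The other member with a MEF2 match was Cox5b, at -121, also not a muscle form. These matches are descriptions of the letters in the windows.

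One control array stood apart for these genes and bears on every comparison with 0 week. The adult 0 week array was the highest of the 3 controls for 49 of 56 members, against 35.2% of all probe sets, and the highest of all 18 arrays for 45 of 56 members, against 19.0% of all probe sets. Its signals had a median log2 difference of 1.01 from the young control over the members, and 0.10 over all probe sets. The older control differed from the young one by a median of 0.31 over the members. Signals are Affymetrix values scaled to the same average of 500 on each array. The young 4 and 6 week arrays had Gapdh 3′ to 5′ ratios of 3.48 and 6.57, against 1.15 to 1.83 on the others, a sign of less complete RNA. Each count over all members is therefore given without the adult 0 week array as well, where that moved it by more than 1.5 times.

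**Figure D1:**
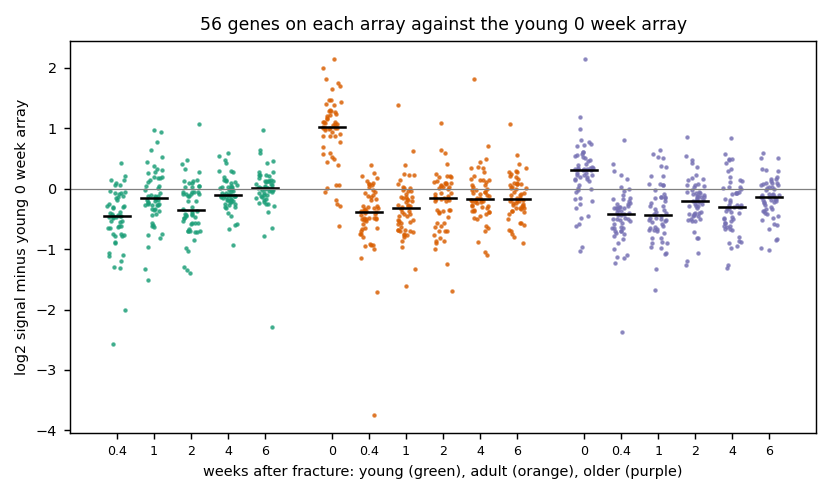
Points are the 56 genes on each of 17 arrays, as log2 signal minus the log2 signal of the same gene on the young 0 week array, with black bars at the median of each array. The adult 0 week array stood above the others, with a median of 1.01, and the older 0 week array had a median of 0.31.

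Most members were lower at 0.4 week than in the unfractured controls, and fewer were called at each later week. Changes at each week against 0 week were tested with limma over all 8740 probe sets, with the 3 ages as the replicates of a week. Age was a term of the fit. Each p-value therefore sets the mean change against how far the time courses differ between ages, together with array noise. A change was called at a Benjamini-Hochberg adjusted p of at most 0.05. At 0.4 week 35 of 56 members (62.5%) were called lower, against 17.1% of all probe sets, and 0 were called higher, against 14.1% (1 member was higher at an unadjusted p under 0.05). The median log2 change was -0.90 over the members and -0.13 over all probe sets. All 3 arrays at 0.4 week lay below all 3 at 0 week for 37 members, against 24.7% of all probe sets. Scaling the arrays to the same median moved the 0.4 week median of all probe sets to -0.02 and that of the members to -0.76.

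At 1 week 25 members were called lower and 1 higher, against 20.4% and 14.6% of all probe sets, with a member median of -0.68. At 2 weeks 17 were called lower and 0 higher, against 10.3% and 9.49% (0 higher also at an unadjusted p under 0.05), with a median of -0.66. At 4 weeks 4 were called lower and 0 higher, against 1.77% and 3.31% (1 higher unadjusted), with a median of -0.59. At 6 weeks limma called 0 lower and 0 higher, against 0.32% and 0.561% of all probe sets, with 23 lower and 0 higher at an unadjusted p under 0.05, and the median was -0.50. Over all 102 probe sets of the members, 52 were called lower and 3 higher at 0.4 week, and 1 lower and 0 higher at 6 weeks. The medians over all probe sets at these weeks lay between -0.13 and -0.04. A moderated F test over the 5 later weeks called 20 members, 19 with their largest change downwards and 1 upwards, against 13.1% and 13.4% of all probe sets. These comparisons share the 3 control arrays.

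These counts leaned on few arrays. Without the adult 0 week array, 19, 15, 3, 0 and 0 members were called lower at the 5 later times in order, with medians of -0.64, -0.41, -0.37, -0.26 and -0.23, and the F test called 9. Of all probe sets 11%, 13.2% and 3.88% were then called lower at 0.4, 1 and 2 weeks. At an unadjusted p under 0.05, 11 members were then lower at 4 weeks and 5 at 6 weeks, in place of 29 and 23. Among all 8740 probe sets 780 and 664 were lower by this measure, in place of 1049 and 903. Without all adult arrays 2 members were called lower at 0.4 week, Cox6a2 and Cox8b. The same 2 were called without all older arrays, while without the young arrays 34 were called. The fits without adult, older and young arrays called 182, 256 and 1689 of all 8740 probe sets lower. Without the young arrays 17 members were called lower at 4 weeks and 13 at 6 weeks, in place of 4 and 0. Calls over all 8740 probe sets rose too, from 155 to 449 at 4 weeks and from 28 to 635 at 6 weeks. With only the young 4 and 6 week arrays left out, 4 and 1 members were called lower at those weeks.

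**Figure D2:**
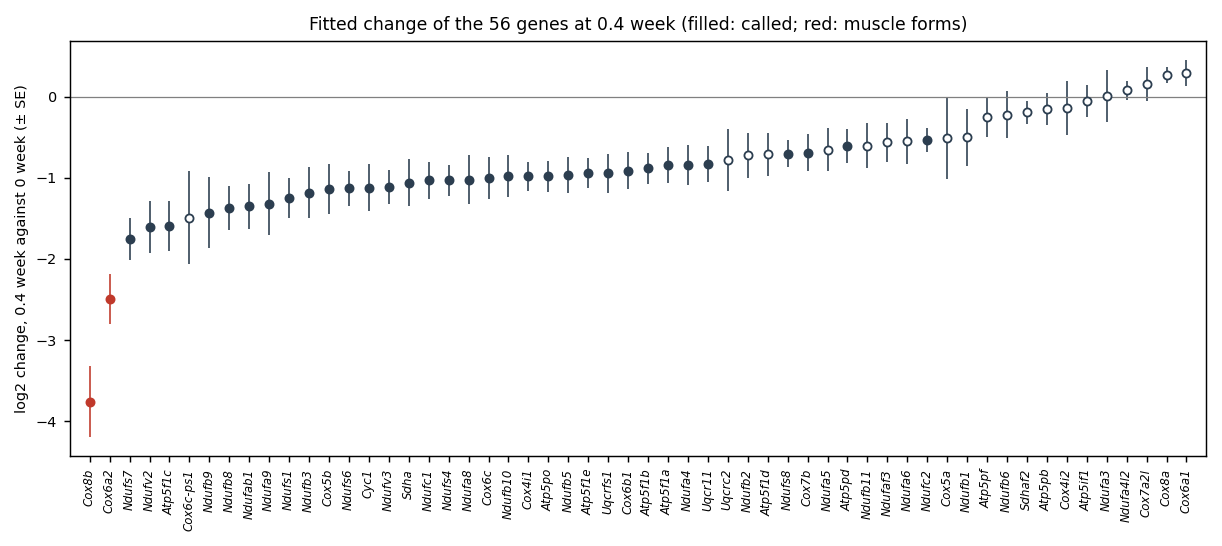
Fitted log2 change at 0.4 week against 0 week for each of the 56 genes, ordered by size, with standard errors, filled points for called genes and red for the muscle forms. Cox8b at -3.76 and Cox6a2 at -2.49 are the lowest, and Cox6a1 at 0.30 is the highest.

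The largest falls at 0.4 week were those of the muscle forms of complex IV. Cox8b, the muscle form of the smallest nuclear subunit, read 4132, 14553 and 7022 on the young, adult and older 0 week arrays and 693, 309 and 797 at 0.4 week, and the groups did not overlap. This was a log2 change of -3.76 ± 0.44 (SE, limma adjusted p = 0.000288), or 13.5-fold. By 6 weeks its signals were 3173, 2776 and 3139, below the control of each age. Cox8b was called lower also at 1 week (-2.47), 2 weeks (-2.0) and 4 weeks (-1.71, limma adjusted p = 0.0478), and its 6 week change of -1.31 missed the threshold (limma adjusted p = 0.129).

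Cox6a2, the muscle form of a regulatory subunit, read 8231, 25747 and 18778 at 0 week and 2038, 2514 and 4385 at 0.4 week. All 3 arrays at 0.4 week were below all 3 controls, with a log2 change of -2.49 ± 0.31 (limma adjusted p = 0.000409). It was called lower at 1 week (-1.60) and 2 weeks (-1.13), and its changes at 4 weeks (-1.18) and 6 weeks (-0.92) missed the threshold. At 6 weeks the young array, at 8241, was back at its control level, while the adult and older arrays, at 7791 and 9149, were below theirs. That young array carried less complete RNA (Gapdh 3′ to 5′ ratio 6.57). A further bright probe set of each gene gave the same direction at 0.4 week, at -2.07 for Cox6a2 and -3.80 for Cox8b, both called. The last Cox6a2 probe set had a mean signal of 10.0 and no called change.

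The general partners of these genes were called lower at no week. Cox6a1 read 7152, 4640 and 4782 at 0 week and 6806, 6848 and 6381 at 0.4 week, and the groups overlapped. Its log2 change of 0.30 ± 0.16 missed the threshold (limma adjusted p = 0.184). Cox8a read 5735, 5795 and 5755 at 0 week and 6637, 7489 and 6710.4 at 0.4 week, all 3 above the controls, with a change of 0.27 ± 0.10 that missed the threshold (limma adjusted p = 0.0728). Their signs at 0.4 week were positive under each scaling tried. Other probe sets of both genes were called higher: the second of Cox6a1 at 0.4, 1, 2 and 4 weeks (1.15, 1.07, 0.88 and 0.64), its dimmest at 0.4 and 1 week (0.57 and 0.72), and one of Cox8a at 0.4, 1 and 2 weeks (0.82, 0.93 and 0.93). For Cox6a1 the brightest probe set changed in the opposite direction from these at 1 and 4 weeks, without being called, and one dimmer Cox8a probe set read -0.14 and -0.22 at 0.4 and 1 week, also not called.

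Within each array the pairs therefore moved apart. The log2 change of Cox8b minus that of Cox8a in the young, adult and older series was -2.79, -5.93 and -3.36 at 0.4 week, against -0.31, -2.38 and -0.99 by 6 weeks. For Cox6a2 minus Cox6a1 the same differences were -1.94, -3.92 and -2.51, against -0.01, -1.93 and -0.77. The gap was widest at 0.4 week at each age, and at 6 weeks it was smallest in young rats. That value rests on the young 6 week array, which carried less complete RNA (Gapdh 3′ to 5′ ratio 6.57).

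**Figure D3:**
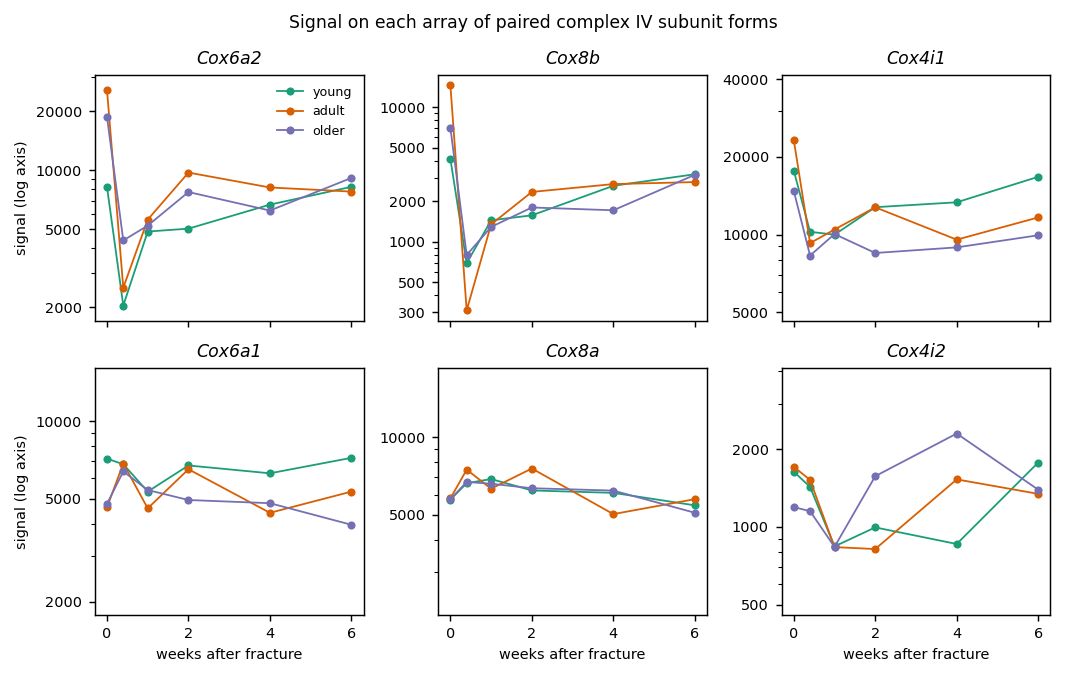
Signal on each array (log axis) against weeks after fracture for 3 pairs of complex IV subunit forms, 1 line per age. Cox6a2 and Cox8b dropped at 0.4 week at every age, to 2038 to 4385 and 309 to 797, while Cox6a1 stayed between 3968 and 7205 and Cox8a between 5039 and 7566.

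The forms of subunit 4 are another pair of complex IV, with Cox4i1 in most tissues and Cox4i2 mainly in lung and under low oxygen. Cox4i1 read 17689, 23249 and 14762 at 0 week and 10254, 9268 and 8297 at 0.4 week. It was called lower at 0.4, 1, 2 and 4 weeks (-0.98, -0.84, -0.71 and -0.81, each SE 0.18). Its other probe sets differed from this one. The second was called lower at 0.4 and 1 week (-0.82 and -0.70) and not at 2 or 4 weeks (-0.54 and -0.47), and the last was called at no week, at -0.18 at 0.4 week and 0.11 at 2 weeks. Cox4i2 read 1634, 1707 and 1192 at 0 week and 839.6, 834 and 836 at 1 week, and no week was called. Its 3 arrays at 4 weeks spread widely, at 858 (young), 1526 (adult) and 2296 (older).

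Of the 10 subunits of complex IV that are not muscle forms, 6 were called lower and 0 higher at 0.4 week, with a median of -0.76. They were Cox5b (-1.14), Cox6c (-1.0), Cox4i1, Cox6b1 (-0.91), Ndufa4 (-0.84), which was first assigned to complex I, and Cox7b (-0.69). Without the adult 0 week array 1 of these, Cox4i1, was called. Cox5b (-0.73), Cox6c (-0.75), Cox6b1 (-0.64), Ndufa4 (-0.49) and Cox7b (-0.35) were not. A dimmer Cox6c probe set, with a mean signal of 88.0, went up in young and older rats at 0.4 week and down in adult rats. It read 63.6, 115.2 and 23.0 on the young, adult and older 0 week arrays and 108.2, 77.6 and 84.6 at 0.4 week. Over all probe sets 17.1% were called lower at 0.4 week, and 11% without the adult 0 week array. These shares apply to each complex below. The subunits not called at 0.4 week were Cox6a1, Cox8a, Cox4i2 and Cox5a, whose only single-gene probe set was dim, at 18.9 to 207. Of the genes outside the enzyme, Cox7a2l was the 1 member called higher at 1 week, at 0.87 ± 0.21 (limma adjusted p = 0.0103), from 1570.0, 1372 and 1017 at 0 week to 2436, 2406 and 2264, and its second probe set was also called, at 0.79. The pseudogene Cox6c-ps1 was dim, at 13.7 to 223. All 3 of its arrays at 1 week were under the floor of 20, to which lower signals were raised, so that its called change of -2.76 there is set by the floor.

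Complex I takes electrons from NADH and is the largest of the complexes. Of its 24 subunits measured, 17 were called lower and 0 higher at 0.4 week, with a median of -1.03 and a range from -1.75 to 0.01. Of the 24, 11 were called lower without the adult 0 week array. Ndufs7, a core subunit with an iron-sulfur cluster, read 3301, 8563 and 5043 at 0 week and 1526, 1649 and 1496 at 0.4 week, with no overlap and a change of -1.75 ± 0.26 (limma adjusted p = 0.000867). Ndufv2, a core subunit of the NADH-oxidising end, read 2702, 9069 and 3520.0 at 0 week and 1462, 1543 and 1357 at 0.4 week. Its change was -1.61 ± 0.32 (limma adjusted p = 0.00431). The 3 arrays at 0.4 week were close to each other in both genes, and the spread lay in the controls.

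Next in size at 0.4 week were Ndufb9 (-1.43), Ndufb8 (-1.37), the acyl carrier protein Ndufab1 (-1.35), Ndufa9 (-1.32) and Ndufs1 (-1.25), the largest core subunit. Of these, Ndufb9 (-0.89) and Ndufa9 (-0.80) were no longer called without the adult 0 week array. Ndufb8, an accessory subunit of the membrane arm, read 6791, 14589 and 7888 at 0 week and 3184, 3525 and 4062 at 0.4 week. Ndufs4, an accessory subunit that stabilises the NADH-oxidising end, read 1792, 1725 and 1427 at 0 week and 783, 812 and 820.2 at 0.4 week, with controls close to each other. It was called lower at 0.4, 1, 2 and 4 weeks (-1.03, -0.57, -1.02 and -0.87, each SE 0.19). The subunits not called at 0.4 week were Ndufa3, Ndufa5, Ndufa6, Ndufb1, Ndufb2, Ndufb6 and Ndufb11. At 1 and 2 weeks 10 and 7 of the 24 were called lower, at 4 weeks Ndufs4 alone, and at 6 weeks 0. The shares of all probe sets called lower at these weeks were 20.4%, 10.3%, 1.77% and 0.32%. The 6 week median of the 24 was -0.56.

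Complex II was measured by Sdha, the flavoprotein that oxidises succinate. It read 1639.6, 3781 and 2742 at 0 week and 1585, 1173 and 1013 at 0.4 week, a change of -1.06 ± 0.29 (limma adjusted p = 0.0176), and it was called lower at 1 week as well (-1.03). The young array barely differed from its control at 0.4 week, and without the adult 0 week array the change was -0.76 and missed the threshold (adjusted p = 0.0795). Sdhaf2, which helps to attach the flavin to Sdha, was called lower at 1 week (-0.70).

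Complex III, which passes electrons to cytochrome c, had 3 of 4 subunits called lower at 0.4 week. They were Cyc1, its cytochrome c1 (-1.12), the Rieske iron-sulfur protein Uqcrfs1 (-0.94) and Uqcr11 (-0.83). Without the adult 0 week array 1 was called, Uqcrfs1 (-0.63), while Cyc1 (-0.74) and Uqcr11 (-0.52) missed the threshold. Uqcrfs1 read 5152, 11552 and 7082 at 0 week and 3667, 4109.5 and 3935 at 0.4 week. Uqcrc2, a core protein, changed by -0.78 without being called, and its young and older arrays at 0.4 week, at 1066 and 802, lay near controls of 962 and 1186.

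Complex V, the ATP synthase, had 6 of 9 subunits called lower at 0.4 week, with a median of -0.84. The falls were largest for the central stalk subunit Atp5f1c (-1.59), followed by the stalk subunit Atp5po (-0.98), Atp5f1e (-0.94), the catalytic subunit Atp5f1b (-0.88), Atp5f1a (-0.84) and Atp5pd (-0.61). The last 2 were not called without the adult 0 week array. Atp5f1b read 9425, 17300.2 and 14306 at 0 week and 7057, 7354 and 7153 at 0.4 week, and was 8431, 9355 and 8045 at 6 weeks. Each array at 0.4 week was below each control. Atp5pb (-0.15), Atp5pf (-0.25), Atp5f1d (-0.71) and the inhibitor Atp5if1 (-0.05) were not called. At 4 weeks Atp5po was called lower (-0.82).

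**Figure D4:**
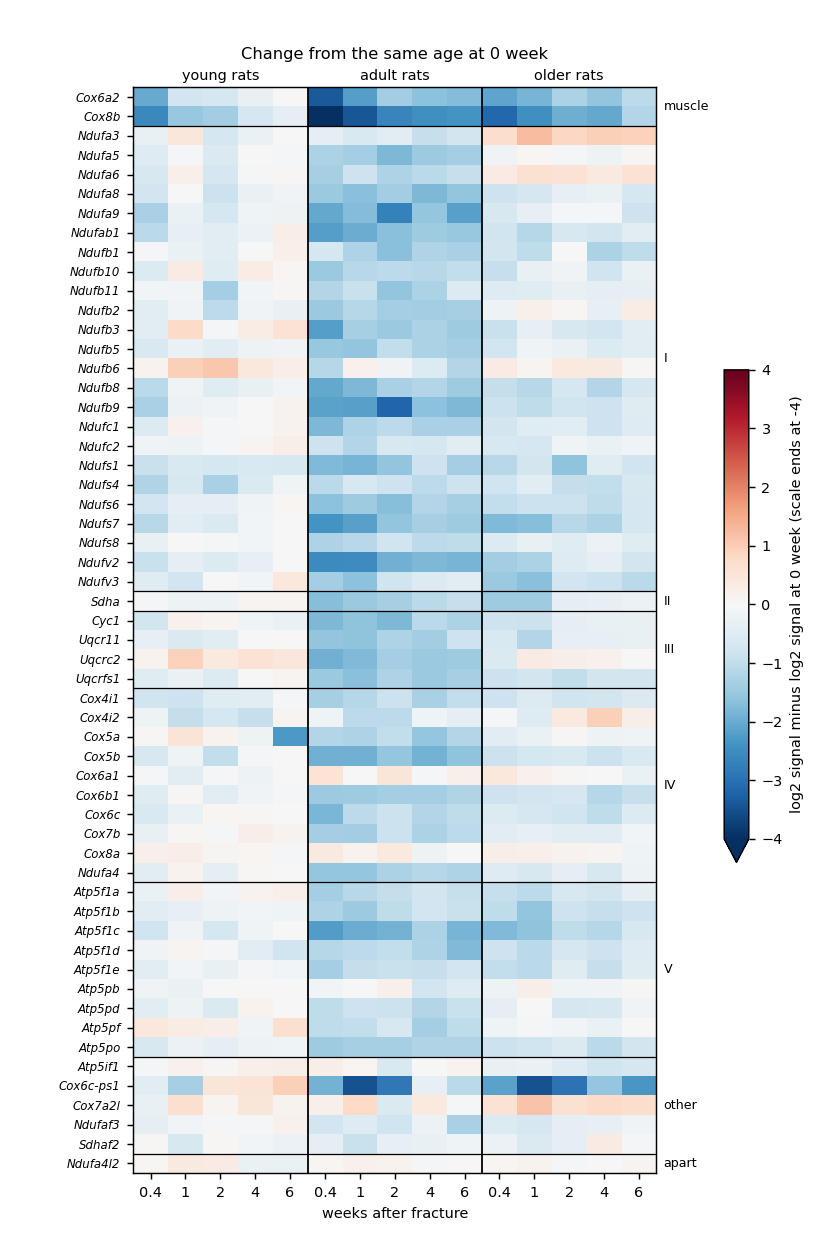
Each row is a gene, grouped by complex, and each column an array, coloured by log2 signal minus that of the same age's 0 week array (blue lower, red higher). The adult columns are the bluest, with medians of -1.40 at 0.4 week and -1.17 at 6 weeks. The young column at 6 weeks, from an array with less complete RNA, has a median of 0.00.

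The muscle forms fell further than the other members at each age. On the young, adult and older arrays at 0.4 week their mean log2 change from the own control was -2.29, -4.46 and -2.62, against -0.45, -1.30 and -0.65 for the 53 other members (all members but the muscle forms and Ndufa4l2). The difference between them was -2.32 ± 0.72 at 0.4 week (SD, n = 3 ages) and -1.39 ± 0.31 at 1 week. It then narrowed to -0.94 ± 0.23 (2 weeks), -0.92 ± 0.46 (4 weeks) and -0.63 ± 0.41 (6 weeks), and it was negative on all 15 arrays after fracture. These are values over chosen genes and carry no test.

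From 0.4 week to 6 weeks, 4 members (7.14%) were called higher and 1 lower, against 6.01% and 6.06% of all probe sets, a share near that of all probe sets. They were Cox8b (2.45 ± 0.44, limma adjusted p = 0.00548), Cox6a2 (1.57), Ndufs7 (1.02) and Ndufv3 (0.74), and Cox8a was the gene called lower (-0.35). The median over the members was 0.34 and over all probe sets 0.04. Without the young 4 and 6 week arrays 1 member, Cox8b, was called higher. Without the adult 0 week array there were 7, without the adult or the older arrays 0, and without the young arrays 2.

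**Figure D5:**
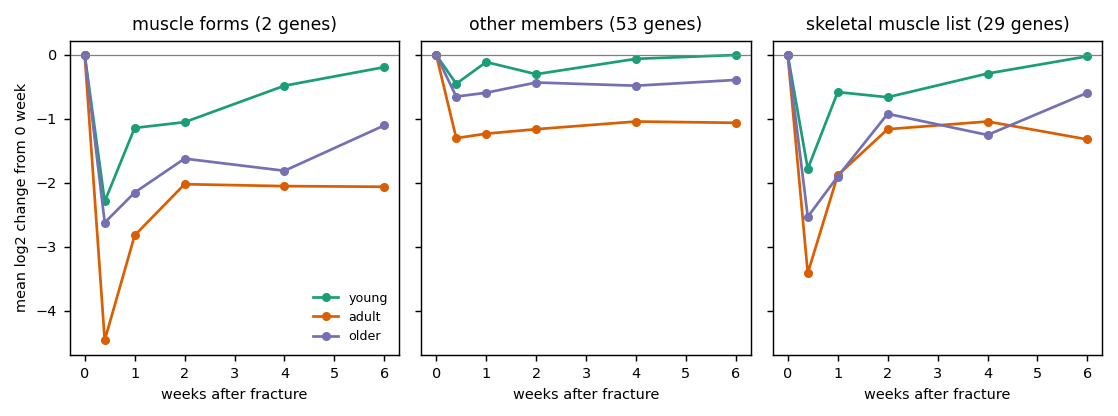
Mean log2 change from the own 0 week array for the 2 muscle forms, the 53 other members and the 29 measured genes of a skeletal muscle list, 1 line per age, against weeks after fracture. At 0.4 week the muscle forms were at -2.29 to -4.46 and the other members at -0.45 to -1.30. At 6 weeks the young lines, from an array with less complete RNA, are at or near 0.

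Skeletal muscle markers moved with the members. Of 35 listed genes 29 were measured, and at 0.4 week 24 were called lower and 1, the myogenic factor Myog, higher (2.30), with a median of -2.51. The shares over all probe sets were 17.1% lower and 14.1% higher. The largest falls in the list were those of Myl2 (-6.84), Myh2 (-5.25), Pvalb (-4.77) and Myl3 (-4.33). Their mean log2 signal was 11.82, 13.10 and 12.72 on the young, adult and older 0 week arrays, 10.04, 9.69 and 10.19 at 0.4 week, and 11.80, 11.78 and 12.13 at 6 weeks, so that the adult 0 week array was also the highest here. The summed signal of the list was 217642 to 453144 at 0 week and 60401 to 70297 at 0.4 week. The actin Acta1 and the creatine kinase Ckm were never under 11678 and 7006.5, and Myl2 was under 20 on 1. The part of these cells in the fall of the members was not tested.

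Marrow markers also fell. All 7 measured erythroid genes and all 5 measured granulocyte genes were called lower at 0.4 week, with medians of -3.23 and -3.32, led by Slc4a1 (-4.53), Alas2 (-4.19) and Prg2 (-5.17). The summed erythroid signal lay between 73465 and 107646 on the 0 week arrays, between 11210 and 20036 at 0.4 week and between 4248 and 11260 at 1 week. The summed granulocyte signal lay between 14788 and 28198, between 746 and 7780, and between 1466 and 1872. Neither range overlapped its control range. Of 11 adipocyte genes, Lpl, Lipe and Cfd were called lower at 0.4 week. Fabp4 read 353 to 1954 and Lep 1499 to 5518 over the 18 arrays, Ucp1 of brown fat 24.3 to 122, and Plin1 was under 20 on 14 arrays. Cartilage had 3 of 7 genes called higher at 0.4 week and 6 of 7 at 1 week. Bone matrix had 6 of 10 higher and 1 lower at 0.4 week. Over all probe sets 14.1% were called higher and 17.1% lower at 0.4 week, and 14.6% higher at 1 week. At 0.4 week 1 of 4 macrophage genes was higher (Cd14, 1.25) and 1 of 6 osteoclast genes lower (Car2, -3.65). This is close to the share of all probe sets. The part of these cells was not tested either.

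Among other genes of the pathway, the forms of the adenine nucleotide carrier also moved in opposite directions. The adenine nucleotide carrier Slc25a4, the form of heart and muscle, read 10247, 23407 and 14376 at 0 week and 5366, 5555 and 5450.1 at 0.4 week (-1.47 ± 0.23, limma adjusted p = 0.00108). The form of dividing cells, Slc25a5, read 1864, 679.6 and 738 at 0 week and 4397, 5464 and 4836 at 0.4 week, a rise of 2.32 ± 0.32 (limma adjusted p = 0.000636), and every array was above every control. The mitochondrial creatine kinase of striated muscle, Ckmt2, fell by 4.22 on the log2 scale, from 3627, 7720.2 and 6656 to 321, 189.9 and 472. The other form, Ckmt1, changed by -0.77 without being called at 0.4 week and was called lower at 1 week (-1.47). In that list of ATP and ADP exchange and uncoupling, 4 of 10 measured genes were called lower and 1 higher at 0.4 week. Over all probe sets the shares were 17.1% and 14.1%. The adult 0 week array had the highest summed signal of that list too, 51373, against 30442 and 42454 on the young and older controls.

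In the tricarboxylic acid cycle 4 of 10 measured genes were called lower and 0 higher at 0.4 week, with a median of -0.52. Of the 10, Sucla2 was under the floor on all 18 arrays, so its change is fixed at 0, and over the other 9 the median was -0.61. Those called were Idh2 (-1.11), Pdhb (-1.0), Dlat (-0.81) and Suclg1 (-0.81). At 1 week 6 were called lower, while citrate synthase, Cs, was called at neither (-0.34 and -0.71). Over all probe sets 17.1% were called lower and 14.1% higher at 0.4 week, and 20.4% lower at 1 week. The adult 0 week array had the highest summed signal of the cycle's genes, 35705, against 21116 and 26744 on the young and older controls. Among 5 measured regulators of mitochondrial biogenesis, Esrra, a nuclear receptor that switches on respiratory genes, was called lower at 0.4 week (-1.15), and Hif1a, the oxygen-sensing factor (1.62), and Myc (0.98) were called higher. Esrra read 330, 602 and 572 on the young, adult and older 0 week arrays and 294, 223 and 158 at 0.4 week, so the young arrays barely differed. Hif1a read 100.4, 91.4 and 85.1 at 0 week and 316, 282.5 and 253 at 0.4 week. Of the list of assembly and copper delivery factors only 2 of 22 were measured, Ndufaf3 and Sdhaf2, and 0 were called at 0.4 week.

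The mitochondrial genome encodes the 3 core subunits of complex IV, which the array annotates as COX1, COX2 and COX3, and these are not members by the spelling of the rule. Their probe sets read 6748 to 29831 over the 18 arrays. The brighter COX1 probe set was called lower at 0.4, 1 and 2 weeks (-0.67, -0.97 and -0.64) and the other at 1 week (-0.60), COX3 was called lower at 0.4 week (-0.60), and COX2 changed by -0.53 without being called. On the brighter COX1 probe set the 3 controls read 27746, 29831 and 29031, with little between them.

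Ndufa4l2, a paralogue of Ndufa4 that is induced under low oxygen, was measured by 5 probe sets that did not move alike. The brightest lay between 479 and 754 on all 18 arrays and was called at no week (0.08 ± 0.12 at 0.4 week and 0.23 at 1 week). Of the others, 3 were called higher at 1 week (0.89, 2.07 and 1.71), and the last changed by 2.17 without being called. The second in brightness read 594, 519 and 361 at 0 week and 809.7, 842 and 1037 at 1 week. The third read 287.5, 95.2 and 92.3 at 0 week and 498.5, 531 and 701 at 1 week, each array above each control in both. Ndufa4 itself fell (-0.84).

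The ages were compared in 2 ways. Older against young rats at 4 and 6 weeks gave 0 members called lower and 0 higher with limma, against 0.0343% and 0.114% of all probe sets, with 9 lower and 2 higher at an unadjusted p under 0.05 and a median of -0.23. Unadjusted, 489 of all 8740 probe sets were lower and 787 higher. The methods' t-test also gave 0 after adjustment, on log2 and on linear signals, and at an unadjusted threshold of 0.01 it gave 0 and 1 lower. It had 1 array per age and week here, fewer than the study ran. The difference between older and young rats in the change from the own 0 week array gave 0 lower and 0 higher, against 3.02% and 3.57%, with 8 lower and 2 higher unadjusted and a median of -0.36. For this difference 1025 of all 8740 probe sets were lower and 780 higher unadjusted. The first comparison has 4 residual degrees of freedom. The second rests on 1 control array per age, so its p-values hold no measure of variation between control arrays.

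By age, the median 0.4 week change of the 56 members from the own control was -0.46 (young), -1.40 (adult) and -0.75 (older). The same medians at 6 weeks were 0.00, -1.17 and -0.45, with 26, 53 and 45 members below the own control. The young 6 week array carried less complete RNA, with a Gapdh 3′ to 5′ ratio of 6.57. Over all probe sets the 6 week medians were 0.01, -0.04 and -0.11, with 37.0%, 51.9% and 54.3% below the own control. The same difference for adult against young rats, which shares the young arrays with the older comparison, called 16 members lower and 0 higher, against 4.39% and 2.57% of all probe sets (0 higher also unadjusted). The adult control behind it is the array that stood apart. Adult and young rats were also compared at 4 and 6 weeks, in the fit with 4 residual degrees of freedom. Limma called 0 members lower and 0 higher, against 0.0114% and 0.0458% of all probe sets. Unadjusted, 5 members were lower and 2 higher, against 349 and 679 of all 8740 probe sets.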

How the data were processed

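RNA of the mid-shaft femur was measured on 18 Affymetrix rat expression arrays, which form 1 of the array series that the study ran. Its other arrays were not analysed here. The deposited intensity values are linear signals, which the authors computed with Microarray Suite from perfect match and mismatch probes and scaled to an average of 500 on each array; the trimmed mean of each array was 500.0. Signals under 20 were set to 20 and taken to log2, and no array was left out. The number of arrays limits the precision.

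Of 8799 probe sets, 59 controls were left out. Probe sets were named from the platform annotation and updated through a RefSeq table (GRCr8): 7006 had 1 gene symbol, 308 several and 1426 none. The 8 probe sets that fit the rule but name several genes were set apart. Brightness was used to choose the probe set of a gene and to order probe sets of 1 gene, and no difference in level between genes was read from it.

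For changes, limma 3.58.1 (R 4.3.3) was used with an intensity trend, age and week as additive terms, and Benjamini-Hochberg adjustment over 8740 probe sets (10 residual degrees of freedom). Older and young rats were compared at 4 and 6 weeks with age terms for early and late weeks (4 degrees of freedom), and in the change from the own control (8). The fit was tested on simulated data. Figures were drawn with matplotlib in Python. Alternatives were other floors, offsets, scalings, a filter on mean signal, fits without the trend or without age, leaving out each age, averaging all probe sets and the methods' t-test.

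The members, the lists of other genes and the tests were chosen with earlier results of these data known. Named genes are the paired forms and core subunits, the 2 brightest members of each complex, up to 8 called rises and 8 called falls of a comparison, up to 4 called genes of each list, and members whose probe sets disagree. Other genes named were chosen after their values were seen. Motifs were chosen from factors known for muscle and respiratory genes.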

Additional observations from a re-analysis of the deposited data

Results flagged for a closer look

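The change from the own 0 week array differed between adult and young rats: limma called 16 of 56 members lower in adult rats, and the largest called differences in log2 change were those of Uqcrc2 (-2.10 ± 0.31, SE), Ndufb3 (-1.76 ± 0.32), Ndufv2 (-1.71 ± 0.33) and Ndufab1 (-1.40 ± 0.35). Each rests on 1 control array per age, which has its own term in the fit. The SEs therefore come from the later arrays alone and hold no measure of variation between control arrays. The adult 0 week array was the highest control for 49 of 56 members. Uqcrc2 read 3827 on the adult 0 week array against 962 and 1186 on the young and older ones. The share of all probe sets called lower for this difference was 4.39%. Between adult and young rats at 4 and 6 weeks limma called 0 members lower and 0 higher.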

How the results depend on the processing

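Counts of members depended most on which ages were kept. Leaving out 1 age at a time, 2 to 34 members were called lower at 0.4 week, 0 to 31 at 1 week, 0 to 23 at 2 weeks, 0 to 17 at 4 weeks and 0 to 13 at 6 weeks, the F test called 0 to 18, and from 0.4 to 6 weeks 0 to 2 were called higher and 0 lower. The highest counts came without the young arrays, where calls over all probe sets at 4 and 6 weeks also rose. Without the adult 0 week array, an alternative chosen after seeing the data, 19, 15, 3 and 0 members were called lower at 0.4, 1, 2 and 4 weeks, the F test called 9, and from 0.4 to 6 weeks 7 were called higher and 0 lower. Without the young 4 and 6 week arrays, also chosen then, 1 was called lower at 6 weeks, the F test called 13, and 1 was called higher and 0 lower from 0.4 to 6 weeks. The methods' t-test with Benjamini-Hochberg adjustment called 1 member lower at 0.4 week (Ndufs4) and 0 at 1, 2 and 4 weeks, on log2 and on linear signals, and 0 lower from 0.4 to 6 weeks. At an unadjusted threshold of 0.001 it called 1 lower at 0.4 week on log2 signals and 0 on linear ones. From 0.4 to 6 weeks it called 3 higher on either. This t-test had 3 arrays for each time here, 1 per age, while the study ran 3 arrays per age and time.

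Scaling to the same median gave 7 lower at 2 weeks, 0 at 4 weeks and 11 by the F test, and moved Cox4i2 at 0.4 week from -0.14 to 0.00, of the opposite sign before rounding. At 4 weeks a floor of 1 and an offset of 50 each gave 7 lower, a mean signal of at least 200 gave 14 (and 2 at 6 weeks) and no age term gave 2. Cox8a was not called lower from 0.4 to 6 weeks under the floor of 1, the offset, quantile normalization, median scaling or the mean signal filter, each with 0 lower, and averaging all probe sets of a gene gave 2 lower. Averaging also gave 2, 4 and 2 members higher at 0.4, 1 and 2 weeks, in place of 0, 1 and 0, and moved the difference of muscle forms from other members at 1 week to -0.99. Adult in place of older rats gave 16 members with a lower change than in young rats, and leaving out the 4 and 6 week arrays gave 1 (Ndufv3). The cause of these shifts was not tested. The differences of the muscle forms from other members lay between -2.56 and -1.91 at 0.4 week and between -0.86 and -0.43 at 6 weeks under every alternative run. No pairing by replicate within an age was possible because each age and week has 1 array here. All labels carry the same series number, so they tell no replicates apart. Age stands as a term instead, so that each week was compared with 0 week within the ages.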

Other observations

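The 8 probe sets annotated to several genes were no members, since their signal cannot be given to 1 gene. At 0.4 week 4 of them were called lower: those of Cox5a with a further locus (-1.65), of the ATP synthase ring gene Atp5mc1 and a copy of it (-1.38), of Cox7a2 and a copy (-1.09), and of Ndufb4 and a copy (-0.66). Over all probe sets 17.1% were called lower at 0.4 week. Cox7a2 is the general partner of the muscle form Cox7a1. The probe sets of Atp5mc2 (-0.25), Cycs (-0.77) and Ndufs5 (-0.58) were not called, and that of Cyct, the cytochrome c of testis, had a mean signal of 9.4.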
